A study of Zea mays with 24 samples.

Results

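The response of maize source leaves to low nitrate was set against their response to low phosphate, transcript by transcript. For each transcript the difference was computed as the low N response (low N minus control N) minus the low P response (low P minus control P), on a log2 scale. It uses 16 of the 24 arrays of the series, with 4 biological replicates in each of 4 groups. All plants were of the inbred line B73, grown in pots of nutrient-poor peat soil. The lamina of leaf 6 was harvested at day 30 after germination. Night temperature was the same in all 4 groups, and none had the cold nights of the low temperature experiment of the series. Low N plants received 0.15 mM KNO3 with 0.5 mM KH2PO4, and control N plants 15 mM KNO3 with 0.5 mM KH2PO4. Low P plants received 15 mM KNO3 with 0.1 mM KH2PO4, and control P plants the same full solution as the control N plants, in a separate experiment. Every leaf was hybridized to 1 one-colour Agilent array, on which 41780 transcript probes were spotted once each. Signals are log2 values relative to the 75th percentile of their array, so that 0 marks the 75th percentile and a step of 1 is a factor of 2. Tests covered the 29642 probes whose signal exceeded background clearly in every replicate of 1 group or more, as the scanner software marks it (well above background).

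Nitrate and phosphate reach the shoot as mineral ions but are used differently. Nitrate is reduced in the leaf by nitrate reductase and nitrite reductase to ammonium, which the GS/GOGAT cycle (glutamine synthetase and glutamate synthase) builds into amino acids. Phosphate (Pi) is not reduced; it is held in the vacuole and in phosphorylated metabolites, nucleic acids and phospholipids, and plants short of it produce Pi transporters, secreted acid phosphatases, sulfolipids that stand in for phospholipids, and a set of regulators. Among these regulators, proteins with an SPX domain sense the Pi status of the cell and restrain transcription factors of the PHR1 type, and a non-coding RNA of the IPS1 type sequesters the microRNA that targets PHO2, an enzyme that marks Pi transporters for degradation. These roles are best known from Arabidopsis and rice.

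A transcript was called for the difference at more than 1 on the log2 scale in either direction (a factor above 2 between the 2 responses) and a Benjamini-Hochberg adjusted p under 0.05 in limma. In all, 3981 of the 29642 tested transcripts were called (13.4%). Of these, 1249 (4.21%) were higher in the low N response than in the low P response and 2732 (9.22%) were lower. The adjusted p alone was passed by 7408 transcripts (25.0%), and an unadjusted p under 0.05 by 11098 (37.4%). The 31.4% share of higher calls depended on the scaling, and became 46.3% when arrays were scaled on their median and 45.5% after quantile normalization, which moved the median difference of all tested transcripts to 0.14 and 0.11, against -0.02. Lower calls were also the larger ones: 218 of them exceeded 4 in size on the log2 scale, against 11 of the higher calls.

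**Figure D1:**
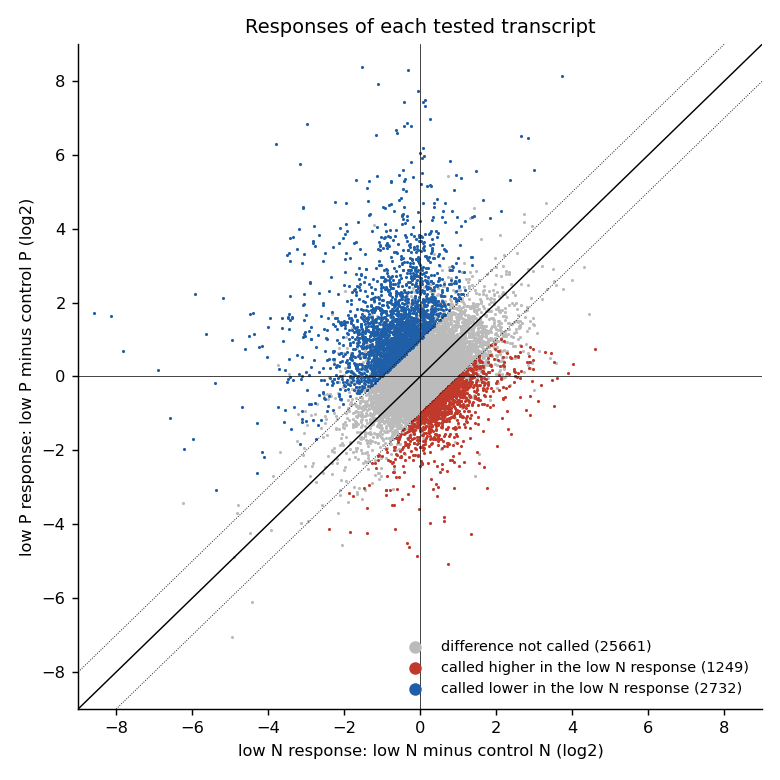
Low N response (x axis) against low P response (y axis) of the 29642 tested transcripts, both as log2 differences from the own control. The solid diagonal marks equal responses and the dotted lines a difference of 1. Most of the 2732 transcripts called lower in the low N response lie above the diagonal with a positive low P response, and the 1249 called higher lie below it.

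A difference can come from either response or from both. The single responses were called at the same limits. For low N they gave 2418 calls (8.16%), of which 1123 were higher (3.79%) and 1295 lower (4.37%) than control N. For low P they gave 3181 calls (10.7%), of which 2268 were higher (7.65%) and 913 lower (3.08%) than control P. Among the 3981 transcripts called for the difference, the low P response alone was called in 1511 (38.0%), the low N response alone in 772 (19.4%), both with opposite signs in 323 (8.11%) and neither in 1317 (33.1%). In all 1317 the measured responses had opposite signs, as must be so where both are under 1 in size. A response that was not called is not shown to be absent. The low P response was the larger in size in 1763 of the lower and 689 of the higher calls. The median low N response was -0.66 and the median low P response 1.11 over the lower calls, and 0.63 and -0.75 over the higher calls. The opposite called responses were mostly of 1 kind, with 292 transcripts lower in low N and higher in low P, and 31 the other way round. Without limits on size, 1272 transcripts (4.29%) had no overlap between stressed and control arrays in either experiment and moved in opposite directions.

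**Figure D2:**
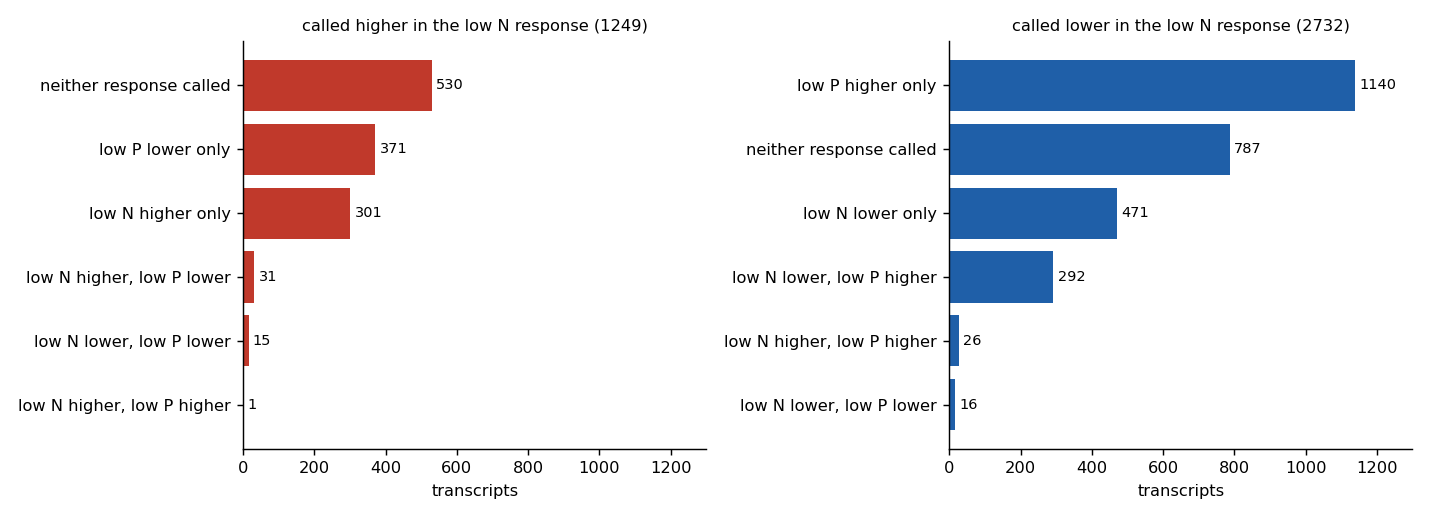
Number of transcripts called higher (left) and lower (right) in the low N response, by which of the single responses was called. The longest bar is the 1140 transcripts that were higher in low P while the low N response was not called.

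The design sets limits to these counts. In the low P experiment slide and treatment cannot be told apart, because 1 slide carried the low P arrays and another the control P arrays. The low N experiment, which the Methods describe as grown in successive sets, lay on 4 slides, 1 of which held control N replicate 3 with low N replicates 3 and 4. With these 3 arrays in place of the 8 of the low N experiment, 4486 transcripts were called, 2963 of the 3981 among them, but control N is then 1 array, which is assumed to vary like the other groups. With the slide as a random block, 1483 transcripts were called. The median residual SD was 0.301 in the low N experiment and 0.186 in the low P experiment. The control groups shared their solution but not their experiment, and control N minus control P was called for 333 transcripts (1.12%), higher in control N for 121 (0.408%) and lower for 212 (0.715%), with 6285 (21.2%) under an unadjusted p of 0.05. Of the 3981 called transcripts, 193 were also called between the controls and 3656 (91.8%) had controls that differed by less than a factor of 2. When the low N and low P arrays were compared directly, without the controls, 5398 transcripts were called (18.2%), higher in low N for 1767 (5.96%) and lower for 3631 (12.2%), and 3262 of the 3981 were called in the same direction.

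Markers of the leaf's main cell types stood on all 16 arrays well above background. The markers of mesophyll cells, such as PEP carboxylase, averaged 4.71 in low N, 4.89 in control N, 4.73 in low P and 4.58 in control P over 6 probes. Those of bundle sheath cells, such as NADP-malic enzyme, averaged 5.67 in low N, 6.34 in control N, 5.33 in low P and 6.17 in control P over 5 probes. Of these 11 probes 1 was called for the difference: of 2 probes for the carbonic anhydrase GRMZM2G094165, 1 gave -2.17 (adjusted p = 0.0031) and the other -0.01 (adjusted p = 0.987). The first rose by 2.67 in low P, against 0.20 on the other, and raised the mesophyll average there. Of the remaining mesophyll probes, PEP carboxylase (-0.23), pyruvate orthophosphate dikinase (-1.53) and carbonic anhydrase GRMZM2G348512 (-0.27) had negative low P responses. That of malate dehydrogenase was positive (0.11). The markers of phloem (a sucrose transporter, 2 probes) averaged 2.53 in low N, 3.10 in control N, 3.15 in low P and 2.89 in control P. Those of senescing cells (3 probes, 1 of them above background on only 10 arrays) averaged -2.01 in low N, -2.62 in control N, -2.60 in low P and -2.71 in control P. These 3 probes went different ways in low P. The dim one, the cysteine protease GRMZM2G010435, had responses of 1.47 in low N and 1.92 in low P. The stay-green homologues GRMZM2G091837 and GRMZM2G103881 had 0.14 and 0.23 in low N, and -0.94 and -0.65 in low P. The part of these shifts in the differences given below was not tested. The array signal is a share of the RNA of the whole lamina, so that fewer cells of a type and less RNA per cell cannot be told apart.

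The lists of pathway members came from the study, and so did the descriptions of transcripts. Over the 6 lists of Pi-related transcripts, 29 of 54 members were lower in the low N response and 2 were higher, against 9.22% and 4.21% of all tested transcripts. The median difference of the 54 was -1.48, with a median low N response of -0.77 and a median low P response of 0.56. Opposite called responses were found in 16 of them. In 7 of the 54, control N was itself called lower than control P (0.715% of all tested transcripts), and those members are named with that value below.

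High-affinity Pi transporters of the PHT1 family, which carry Pi across the plasma membrane, were lower in the low N response without exception. All 6 members were called, with a median difference of -3.12, and 5 of the 6 were lower in low N and higher in low P. The PHT1;4-like GRMZM2G326707 had 0.02, -0.23, -0.83 and -1.09 in low N, 1.40, 1.31, 2.10 and 2.02 in control N, 3.60, 3.73, 3.36 and 3.22 in low P, and 2.01, 2.35, 2.01 and 2.05 in control P. All low N arrays were below and all low P arrays above both control groups. The difference was -3.61 ± 0.34 (SE, n = 4 per group, adjusted p = 3.2e-06), from a low N response of -2.24 and a low P response of 1.37. The PHT1;7-like GRMZM2G075870 had -0.68, -0.78, -0.77 and -0.84 in low N, 0.43, 0.55, 0.67 and 0.90 in control N, 2.64, 2.74, 2.44 and 2.63 in low P, and 0.65, 0.93, 0.59 and 0.64 in control P. Here the control groups covered the same range (control N minus control P -0.07) and the responses were -1.41 and 1.91. Close to it were the PHT1;3-like GRMZM2G139639 (-3.18), the PHT1;7-like GRMZM2G112377 (-3.06) and the PHT1;4-like GRMZM2G154090 (-2.78). The PHT1;5-like GRMZM2G045473 was the exception in size, at -1.11 (adjusted p = 0.0165) with neither response called, and its call was kept in 25 of 36 alternative analyses.

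Of the 11 other Pi transporters, which mostly serve organelles, 1 was called, and their median difference was -0.05. It was the PHF-like GRMZM2G158489, whose Arabidopsis counterpart is no transporter itself but lets PHT1 proteins leave the endoplasmic reticulum. It had -0.25, -0.41, -0.65 and -0.34 in low N, 0.53, 0.59, 0.58 and 1.25 in control N, 2.34, 2.32, 2.12 and 2.13 in low P, and 1.06, 1.06, 1.02 and 1.21 in control P, a difference of -2.29 ± 0.21 (SE, adjusted p = 2.6e-06). Low N was lowest and low P highest, as in the PHT1 transcripts given above. The chloroplast PHT2;1-like GRMZM2G092780 was lower in low P (-1.22), but its difference of 0.45 was not called (adjusted p = 0.18).

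Of the 10 transcripts for SPX proteins, 7 were lower in the low N response and 1 was higher. The 5 small SPX proteins were lower in low N and higher in low P, led by the SPX3-like GRMZM2G065989. It had -0.96, -1.29, -1.13 and -1.49 in low N, 2.91, 3.36, 2.67 and 3.66 in control N, 5.71, 5.74, 5.38 and 5.59 in low P, and 4.48, 4.53, 4.38 and 4.42 in control P. The difference of -5.52 ± 0.26 (SE, adjusted p = 5.2e-09) came mainly from low N, with -4.37 against 1.15 under low P. Control N was called below control P as well (-1.31), and the 4 groups formed 4 separate steps. The second SPX3-like transcript GRMZM2G370780 differed by -4.22, the SPX1-like GRMZM2G171423 by -3.48 and the SPX4-like GRMZM2G122108 by -2.37, and the further probes of these 3 loci were all called in the same direction. In the first 2 of these, control N minus control P was called too, at -1.24 and -1.04. The SPX2-like GRMZM2G035579 was not well above background on any low N array (-6.66, -6.86, -6.93 and -7.71), while its signals were -3.68, -3.49, -3.48 and -3.71 in control N, -2.10, -2.06, -2.0 and -1.85 in low P, and -3.50, -3.17, -3.28 and -3.16 in control P. Its difference is therefore a bound, at least 11.2-fold lower in the low N response (-3.49 on the log2 scale or beyond). The adjusted p of 1.4e-08 in limma belongs to the fit of the measured signals (-4.73), not to the bound. For the bound, each low N array was set to its own lowest signal that was still marked as well above background.

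Transcripts for the larger SPX proteins went separate ways. PHO1 proteins load Pi into the xylem in Arabidopsis, and the PHO1-family GRMZM2G335989 was lower in the low N response by -1.66 ± 0.32 (SE, adjusted p = 0.0018), where the low N response was -1.77 and the low P response -0.11. The call was lost with the slide as a random block and with scaling on spike-in probes, and of the other probes of this locus 1 was called (-1.01) and 1 was not (-1.98, adjusted p = 0.089). The SPX-MFS proteins, which transport Pi across the vacuolar membrane, had 1 called member on either side. GRMZM2G086430 had 0.37, 0.46, 0.99 and 1.09 in low N, -2.79, -2.70, -1.89 and -3.76 in control N, -5.08, -5.05, -3.46 and -4.80 in low P, and -3.88, -3.52, -3.47 and -4.35 in control P. Only the low N arrays stood apart, above all others, and the difference of 4.31 ± 0.56 (SE, adjusted p = 6.4e-05) was among the largest of the higher calls. GRMZM2G166976 differed by -2.08 ± 0.53 in the other direction (adjusted p = 0.011), with low N arrays at -0.39, -0.56, -1.87 and -2.15 below control N arrays at 1.07, 1.30, 0.30 and 0.56, and with no called low P response (0.02). This call was lost with the slide as a random block, with scaling on spike-in probes, in the test against a 1.5-fold difference and without replicate 4 of all groups. The third SPX-MFS transcript, GRMZM2G050329, differed by 0.69, under the limit of size (adjusted p = 0.0029).

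Among 8 regulators of the Pi response the PHR1-like transcription factor GRMZM2G006477 (-0.09, adjusted p = 0.73) and both SIZ1-like SUMO ligases (-0.13 and 0.31) were not called. A transcription factor of the Myb superfamily, GRMZM2G096358, was lower in the low N response by -1.82 ± 0.40 (SE, adjusted p = 0.0043) through low N (-1.15), and lost its call with the slide as a random block, in the test against a 1.5-fold difference and without replicate 2 of all groups. The non-coding RNA of Pi allocation GRMZM2G436295, of the IPS1 type, was among the largest differences of all. It had -1.04, -1.22, -2.21 and -2.16 in low N, 1.40, 1.90, 0.66 and 1.63 in control N, 6.75, 6.80, 6.47 and 6.92 in low P, and 3.62, 3.49, 2.82 and 3.71 in control P. No groups overlapped, and the difference was -6.38 ± 0.43 (SE, adjusted p = 1.4e-07), an 83.4-fold lower ratio. Both responses were called, at -3.06 and 3.33, and control N was called below control P (-2.01). The PHO2-like GRMZM2G464572 had 2.35, 2.30, 2.14 and 2.72 in low N, 3.24, 3.45, 3.94 and 3.74 in control N, 4.43, 4.45, 4.21 and 4.59 in low P, and 4.87, 4.83, 4.71 and 4.54 in control P. It was lower in low N (-1.21), but its difference of -0.90 (adjusted p = 0.0097) did not reach the limit of size, whereas its second probe did, at -1.03. Here too control N was called below control P (-1.15).

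**Figure D3:**
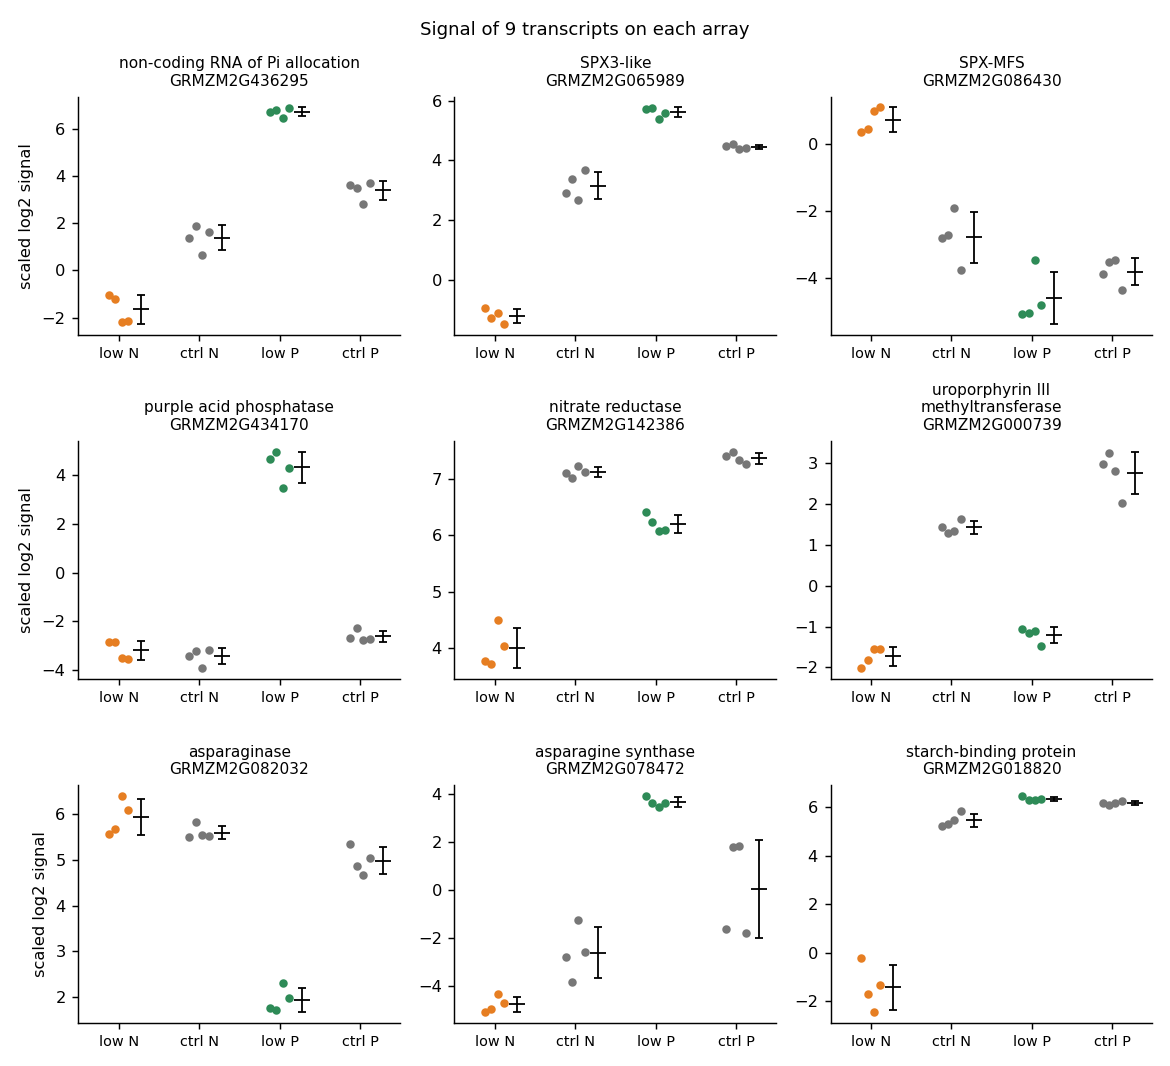
Scaled log2 signal of 9 transcripts on each of the 16 arrays (points) in low N, control N (ctrl N), low P and control P (ctrl P), with the mean and SD of the 4 replicates beside them. The vertical scale differs between panels. The non-coding RNA and the SPX3-like transcript form 4 separate steps, with low N lowest and low P highest, and the purple acid phosphatase is high in low P only.

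Purple acid phosphatases release Pi from organic compounds inside and outside the cell. All 12 loci were called lower in the low N response, with a median difference of -3.30 and 11 or 12 calls in every alternative analysis. The loci reached this by different routes. GRMZM2G434170 had -2.84, -2.85, -3.50 and -3.55 in low N, -3.43, -3.23, -3.92 and -3.20 in control N, 4.66, 4.95, 3.48 and 4.30 in low P, and -2.70, -2.29, -2.77 and -2.71 in control P. Only low P stood apart, and the difference of -6.71 ± 0.40 (SE, adjusted p = 3.5e-08) rested on a 125-fold rise in low P. The opposite case was GRMZM2G152447, with 3.04, 2.37, 1.42 and 1.46 in low N, 6.0, 6.06, 6.22 and 6.64 in control N, 7.89, 8.0, 7.88 and 7.97 in low P, and 7.14, 7.13, 7.19 and 6.95 in control P. Its low N response of -4.16 was called. Its low P response of 0.83 missed only the limit of size (adjusted p = 0.033 in limma), and all low P arrays lay above all control P arrays. The difference was -4.99 ± 0.39 (SE, adjusted p = 5.8e-07).

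In 3 acid phosphatase loci both responses were called, with opposite signs. In GRMZM2G134054 the signal was -2.08, -2.26, -2.79 and -2.57 in low N, 0.81, 0.78, 0.86 and 1.34 in control N, 3.79, 3.87, 3.29 and 3.73 in low P, and 2.03, 2.18, 2.05 and 2.01 in control P, a difference of -4.97 ± 0.24 (SE, adjusted p = 7.1e-09). Its control groups differed too, by -1.12. GRMZM2G093101 differed by -5.47, with controls that differed by -1.24, but its second probe was called in the other direction (1.51, adjusted p = 0.0056), so that the 2 probes of this locus disagree. The third was GRMZM2G138756 (-3.02). At the small end, GRMZM2G062201 differed by -1.45 ± 0.28 (adjusted p = 0.0016) through low N (-1.48), with -0.02 under low P, and lost its call in 3 of 36 alternative analyses.

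Sulfolipid synthesis followed the same direction. The SQD2-like GRMZM2G100652 had -0.23, -0.16, -1.27 and -0.84 in low N, 1.21, 1.14, 0.92 and 1.25 in control N, 2.67, 2.43, 2.66 and 2.57 in low P, and 1.39, 1.50, 1.57 and 1.09 in control P. Low N was below and low P above both controls, a difference of -2.95 ± 0.29 (SE, adjusted p = 4.6e-06). GRMZM2G477503, described as a protein of sulfolipid biosynthesis, had 0.04, -0.52, -1.61 and -1.02 in low N, 3.77, 3.89, 3.49 and 4.16 in control N, 5.47, 5.50, 5.48 and 5.47 in low P, and 4.72, 4.83, 4.92 and 4.54 in control P. It was 40.4-fold lower in the low N response (-5.34 ± 0.36, adjusted p = 1.5e-07), with a called low N response of -4.61 and a low P response of 0.73 that was not called.

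**Figure D4:**
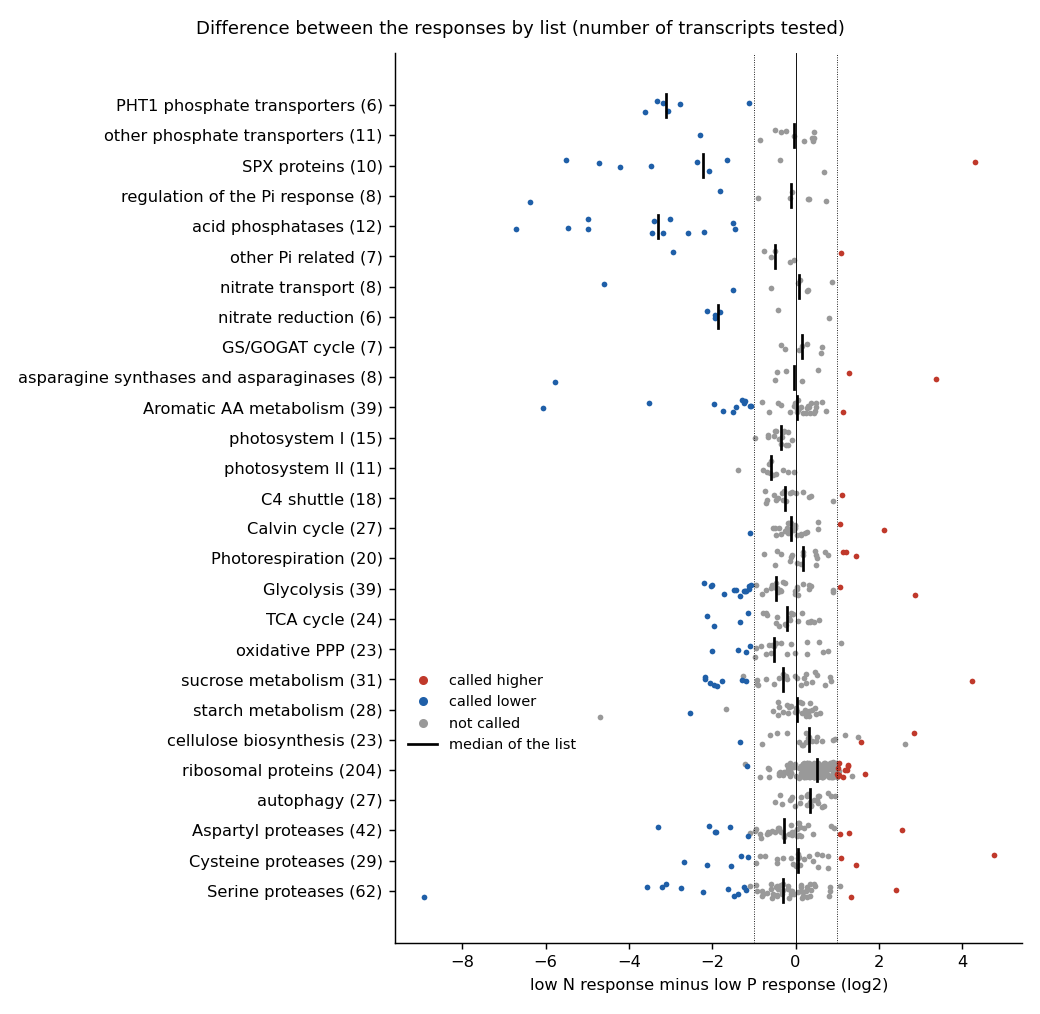
Difference between the low N and the low P response (x axis, log2) of each tested member of 27 lists, with the median of the list as a bar and dotted lines at -1 and 1. PHT1 transporters, acid phosphatases, most SPX proteins and the nitrate reductases lie to the left, while the ribosomal proteins centre to the right of 0.

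Nitrate reduction differed in another way, since all 6 members were called lower under both stresses. The 4 nitrate reductases, which take the first step from nitrate to nitrite, were lower still in low N. GRMZM2G142386 had 3.77, 3.72, 4.49 and 4.04 in low N, 7.10, 7.01, 7.23 and 7.11 in control N, 6.41, 6.23, 6.07 and 6.09 in low P, and 7.40, 7.48, 7.32 and 7.25 in control P. Both stressed groups were below their controls, by -3.11 in low N and -1.17 in low P, and the difference of -1.94 ± 0.21 was called (SE, adjusted p = 1.2e-05). GRMZM2G428027 (-2.13), GRMZM2G104898 (-1.93) and GRMZM2G076723 (-1.81) differed by similar amounts, and all 4 calls were kept in every alternative analysis. The descriptions assign 3 of the 4 to 1 isoform, so that cross-hybridization between near-identical copies cannot be told from separate changes.

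At the following step the difference was not called. Ferredoxin-nitrite reductase GRMZM2G079381 had 2.32, 2.41, 2.96 and 2.44 in low N, 4.72, 4.68, 4.51 and 4.55 in control N, 3.50, 3.47, 3.61 and 3.12 in low P, and 5.20, 5.35, 5.30 and 4.55 in control P. Both responses were called, at -2.08 and -1.67, and their difference was -0.41 with a 95% interval of -0.96 to 0.14 (adjusted p = 0.269). Uroporphyrin III methyltransferase GRMZM2G000739, which makes the precursor of the sirohaem cofactor of nitrite reductase, had -2.01, -1.81, -1.54 and -1.56 in low N, 1.43, 1.28, 1.34 and 1.64 in control N, -1.07, -1.16, -1.10 and -1.48 in low P, and 2.97, 3.23, 2.80 and 2.03 in control P. The low N response was -3.15 and the low P response -3.96, and the difference of 0.81 (95% interval 0.18 to 1.44, adjusted p = 0.0584) was not called, while control N was called below control P (-1.34).

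Of 8 nitrate transporters, 2 were lower in the low N response (25%), against 9.22% of all tested transcripts. The low-affinity transporter GRMZM2G150468 had -3.89, -3.79, -2.84 and -3.18 in low N, -3.29, -3.45, -2.52 and -3.01 in control N, 1.32, 1.40, 1.19 and 1.56 in low P, and -3.01, -2.73, -2.84 and -2.89 in control P. Low P alone stood apart, 18.8-fold above its control, which gave a difference of -4.59 ± 0.32 (SE, adjusted p = 1.9e-07). The high-affinity transporter GRMZM2G455124 was lower in low N (-2.45), with low N arrays at -3.81, -4.09, -3.00 and -3.61 and control N arrays at -0.72, -1.31, -1.04 and -1.63, and differed by -1.51 ± 0.34 (SE, adjusted p = 0.0054). This call was lost with the slide as a random block, after normexp correction, in the test against a 1.5-fold difference and without replicate 1 of all groups. The NRT1.1-like GRMZM2G112154 and the NRT1.5-like GRMZM2G044851 were lower under both stresses and not called for the difference.

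In the GS/GOGAT cycle none of 7 transcripts was called in limma, and the differences ranged from -0.34 to 0.63. Only the cytosolic glutamine synthetase GRMZM2G036464 (0.63) had an unadjusted p under 0.05. It also passed the adjusted p (0.0048) but not the limit of size. Transcripts for asparagine, a nitrogen-rich transport amide, ran both ways. The asparagine synthase GRMZM2G078472 had -5.07, -4.95, -4.35 and -4.71 in low N, -2.78, -3.84, -1.25 and -2.60 in control N, 3.93, 3.64, 3.44 and 3.63 in low P, and -1.64, 1.80, 1.81 and -1.80 in control P. Low P lay above and low N below all control arrays, but control P was split over more than 3 log2 units, and the difference of -5.77 ± 1.06 (SE, adjusted p = 0.0012) was lost with the slide as a random block. A second asparagine synthase, GRMZM2G074589, was higher in the low N response by 1.27 ± 0.19 (adjusted p = 0.00023).

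Asparaginase, which breaks asparagine down to aspartate and ammonium, was one of the clear higher calls. GRMZM2G082032 had 5.55, 5.67, 6.40 and 6.09 in low N, 5.50, 5.82, 5.55 and 5.53 in control N, 1.76, 1.72, 2.30 and 1.99 in low P, and 5.35, 4.85, 4.68 and 5.04 in control P. The 4 low P arrays were far below the other 12, and the difference was 3.37 ± 0.28 (SE, adjusted p = 8.9e-07).

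Among the largest lower calls with a description were 3 for proteins of pathogen defence. The SCP-domain protein GRMZM2G304442 had -3.26, -3.15, -3.51 and -3.85 in low N, -3.02, -2.82, -2.93 and -3.26 in control N, 3.52, 4.23, 1.74 and 3.72 in low P, and -3.76, -3.33, -3.33 and -3.52 in control P. Only the low P response was called (6.79), and the difference was -7.23 ± 0.53 (SE, adjusted p = 3.1e-07). The osmotin-like GRMZM2G402631, of the thaumatin-like defence proteins, had -0.82, -1.08, -0.39 and -0.50 in low N, 1.60, 1.35, 4.87 and 3.12 in control N, 5.13, 6.20, 5.02 and 5.97 in low P, and 1.87, 2.22, 1.79 and 1.50 in control P. Here both responses were called (-3.43 and 3.74), with a difference of -7.17 ± 0.81 (SE, adjusted p = 2e-05), while control N replicates 3 and 4 were far above replicates 1 and 2. A second osmotin-like transcript, GRMZM2G006853, had nearly the same values (-7.14).

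These families were counted after their leading members had been seen, among transcripts that carry a description mostly because the study had called them, so that the counts are no shares of a family. Lower in the low N response, as were 9.22% of all tested transcripts, were 4 of 5 osmotin-like transcripts (median -5.83), 6 of 7 with an SCP domain (median -4.40), 13 of 17 chitinases (median -1.85) and 12 of 19 probes for glutathione S-transferases, of which 2 were higher. In the first 3 families the low P response was called higher in 4, 7 and 14 members, and the low N response lower in 3, 0 and 3. Other families ran both ways, with 12 higher and 14 lower among 41 probes for amino acid transporters, and 3 higher and 1 lower among 8 heat shock proteins.

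Another group of large lower calls came from low N. The starch-binding protein GRMZM2G018820 had -0.21, -1.70, -2.45 and -1.35 in low N, 5.23, 5.32, 5.48 and 5.84 in control N, 6.49, 6.32, 6.30 and 6.35 in low P, and 6.17, 6.08, 6.20 and 6.29 in control P. Low N was 119-fold below its control, no response to low P was called (0.18), and the difference was -7.08 ± 0.45 (SE, adjusted p = 8.5e-08). The myb-like transcription factor GRMZM2G159119 had -2.98, -3.32, -3.97 and -3.69 in low N, 0.57, 0.87, 0.62 and 0.99 in control N, 3.46, 3.34, 3.10 and 3.24 in low P, and 2.33, 2.67, 2.75 and 2.23 in control P. Its difference of -5.04 ± 0.27 (SE, adjusted p = 1.5e-08) stood beside controls that differed by -1.73. Serine O-acetyltransferase GRMZM2G013430, which starts cysteine synthesis, likewise was lower in low N (-3.36) and not called in low P (-0.10), with a difference of -3.26 ± 0.31 (adjusted p = 3.2e-06) and controls that differed by -1.57.

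Opposite responses of large size were not limited to Pi transcripts and defence proteins. The ABC transporter GRMZM2G111462 had -4.17, -4.19, -4.21 and -4.41 in low N, -3.24, -2.98, -2.73 and -2.55 in control N, 3.87, 4.01, 3.29 and 3.63 in low P, and -1.02, -1.08, -1.45 and -0.65 in control P. All groups were apart, control N was called below control P (-1.82), and the difference was -6.12 ± 0.27 (SE, adjusted p = 3e-09). Anthranilate synthase component II GRMZM2G106950, at the entry to tryptophan synthesis, had -2.48, -2.75, -2.05 and -2.06 in low N, -0.14, 0.36, -0.92 and -0.85 in control N, 4.16, 3.52, 3.53 and 3.34 in low P, and -0.78, -0.55, -0.95 and 0.33 in control P. Its controls overlapped, and the difference was -6.07 ± 0.45 (SE, adjusted p = 3.2e-07). The serine carboxypeptidase GRMZM2G373607 was not well above background on any low N array (-8.15, -8.09, -6.71 and -7.71), and had -4.85, -4.79, -4.32 and -4.02 in control N, 3.28, 3.32, 3.32 and 3.35 in low P, and -3.17, -1.08, -1.94 and -3.53 in control P. It was at least 134-fold lower in the low N response (-7.06 on the log2 scale or beyond), and its controls differed by -2.06. The fit of the measured signals gave -8.92, the largest difference of any list member. GRMZM2G022997, described as a protein that interacts with the Arp2/3 complex, gave -6.87 and -6.43 on 2 probes but 1.82 on another (adjusted p = 0.0071), so that its probes disagree.

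Some of the largest higher calls were transcripts that were lower in low P. The PLP-dependent transferase GRMZM2G054115 had 3.31, 3.48, 4.45 and 4.79 in low N, 2.55, 3.08, 3.81 and 3.66 in control N, -3.05, -3.38, -1.57 and -2.72 in low P, and 2.83, 1.85, 1.57 and 3.34 in control P. Only low P stood apart, and the difference of 5.81 ± 0.67 (SE, adjusted p = 2.4e-05) was the largest positive one of all tested probes, although the second probe of this locus gave 2.06 (adjusted p = 0.0196). Allantoinase GRMZM2G173413, which acts in the recovery of nitrogen from purines, had 2.54, 2.44, 2.80 and 3.34 in low N, 2.92, 2.98, 3.61 and 3.0 in control N, -2.03, -2.22, -0.96 and -1.56 in low P, and 3.0, 2.61, 2.65 and 3.06 in control P, a difference of 4.17 ± 0.38 (SE, adjusted p = 2.1e-06), and its second probe gave 4.33. The cathepsin L-type cysteine protease GRMZM2G130053 had 5.03, 5.06, 4.73 and 5.27 in low N, 5.06, 5.05, 4.97 and 5.35 in control N, 0.01, -0.18, 0.94 and 0.28 in low P, and 5.07, 4.75, 4.78 and 5.85 in control P. In all 3 the low P arrays were below the other 12 by several log2 units, and for the protease the low N response was -0.09 (adjusted p = 0.83).

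Vacuolar invertase GRMZM2G089836, which cleaves sucrose in the vacuole, was less even. It had -0.23, -0.34, 0.84 and 1.15 in low N, -0.16, 0.06, 0.83 and -0.34 in control N, -3.05, -3.60, 0.16 and -2.30 in low P, and 2.12, 1.77, 1.59 and 1.66 in control P. Low P replicate 3 lay within the range of control N, and the call of 4.23 ± 0.87 (SE, adjusted p = 0.0027) was lost with the slide as a random block and with the low N arrays of the shared slide alone.

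Other leading higher calls, like the SPX-MFS transcript given above, were transcripts that rose in low N. The oligopeptide transporter GRMZM2G071759 had 5.32, 5.45, 4.57 and 4.09 in low N, 2.56, 2.96, 0.39 and 1.1 in control N, 0.32, 0.27, 0.55 and 0.34 in low P, and 1.53, 0.73, 0.30 and 1.55 in control P. Low N lay above all other arrays, with a difference of 3.76 ± 0.69 (SE, adjusted p = 0.0012), and control N spread over more than 2 log2 units. The permease GRMZM2G362848, described as a carrier of uridine, thiamine or allantoin, had 1.11, 1.1, 0.88 and 0.40 in low N, -1.07, -1.27, -2.74 and -2.52 in control N, -2.79, -4.37, -3.41 and -3.48 in low P, and -2.31, -2.71, -2.61 and -2.80 in control P, a difference of 3.68 ± 0.53 (SE, adjusted p = 0.00016). The heat shock proteins GRMZM2G049378 (3.87 ± 0.91, adjusted p = 0.0063) and GRMZM2G121753 (3.80 ± 0.80, adjusted p = 0.0032) were 24.2-fold and 14.9-fold higher in low N than in control N. Both calls were lost with the slide as a random block, and the first also with the low N arrays of the shared slide alone and without replicate 1 or 2 of all groups. The dynein light chain GRMZM2G346133, part of a motor complex in animals, had 3.14, 3.57, 4.14 and 3.29 in low N, 1.92, 1.83, 0.89 and 1.38 in control N, 0.66, 0.47, 0.21 and 0.65 in low P, and 2.75, 2.19, 2.42 and 2.11 in control P. It was among the 31 transcripts higher in low N (2.03) and lower in low P (-1.87), at 3.90 ± 0.35 (SE, adjusted p = 2e-06).

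Differences in central carbon metabolism were mostly negative, except among starch transcripts, where 13 were negative and 15 positive. Of 39 glycolytic transcripts, 13 were lower and 2 higher in the low N response, with a median of -0.47. This is 38.5% called, against 13.4% of all tested transcripts. Lower were transcripts from many steps, including the PPi-dependent phosphofructokinase GRMZM2G059151 (-1.72), which uses pyrophosphate in place of ATP, the cytosolic glyceraldehyde-3-phosphate dehydrogenase GRMZM2G176307 (-2.03), the phosphoglycerate mutase GRMZM2G021605 (-2.21), 2 enolases (-1.44 and -1.49) and 2 pyruvate kinases (-1.13 and -1.24), while another pyruvate kinase, GRMZM2G124593, was higher (1.07). GRMZM2G021605 had -2.18, -2.39, -2.76 and -2.87 in low N, -1.18, -1.28, -1.0 and -0.41 in control N, 0.29, 0.51, 0.48 and 0.46 in low P, and -0.22, -0.02, -0.32 and -0.22 in control P. Here again low N was lowest, low P highest and the controls lay between. The main exception was the cytosolic aldolase GRMZM2G345493, with 0.84, 1.02, 1.32 and 1.75 in low N, 1.61, 1.61, 1.55 and 1.44 in control N, -2.26, -3.01, -2.32 and -2.80 in low P, and 0.58, 0.63, 0.66 and 0.50 in control P, which was 7.34-fold higher in the low N response (2.88 ± 0.27, adjusted p = 3.1e-06). Over all alternative analyses 5 to 15 glycolytic transcripts were called lower, with 5 after scaling on spike-in probes and 6 with the slide as a random block.

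Sucrose metabolism had 8 lower and 1 higher call among 31 transcripts (29%). Among the lower calls were 4 sucrose phosphate synthases, the enzymes that commit hexose phosphates to sucrose, and 1 of them, GRMZM2G013166, had 5.07, 4.99, 4.55 and 5.05 in low N, 6.87, 6.85, 6.57 and 6.90 in control N, 7.20, 7.26, 7.21 and 7.21 in low P, and 6.88, 6.96, 7.15 and 6.73 in control P. The low N arrays were below all others, and the difference was -2.17 ± 0.18 (SE, adjusted p = 1.1e-06). In the cell wall invertase GRMZM2G139300 (-2.04) the difference came from low P (1.80) with a low N response of -0.24. In the TCA cycle 4 of 24 were called (16.7%) and in the oxidative pentose phosphate pathway 4 of 23 (17.4%), all lower, which is near the 13.4% called over all tested transcripts. Of 28 starch transcripts 1 was called, the small subunit of ADP-glucose pyrophosphorylase GRMZM2G106213 (-2.54 ± 0.57, adjusted p = 0.0048), and its call was lost with the slide as a random block.

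Among photosynthetic transcripts, none of 15 photosystem I and none of 11 photosystem II transcripts was called in limma. Under an unadjusted p of 0.05 were 4 and 5, and 1 in each list passed the adjusted p alone. All 26 differences were negative. Their medians were -0.36 and -0.60, against -0.02 over all tested transcripts, and over the alternative analyses they ran from -0.54 to 0.03 and from -0.68 to -0.18. In the C4 shuttle 1 of 18 was called (5.56%), and in the Calvin cycle 3 of 27 (11.1%), against 13.4% of all tested transcripts. In photorespiration 3 of 20 were higher in the low N response (15%, near the share over all), the glycine cleavage H protein GRMZM2G010321 (1.46 ± 0.23, adjusted p = 0.00042) and 2 serine-glyoxylate aminotransferases. Of the latter, GRMZM2G050481 (1.14, adjusted p = 0.0489) kept its call in 14 of 36 alternative analyses. GRMZM2G450762, a locus described as the large subunit of Rubisco, gave 2.12 ± 0.71 (adjusted p = 0.041), and this call was kept in 16 of 36 alternative analyses.

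Amino acid synthesis beyond asparagine was called mainly in the aromatic branch, where 11 of 39 transcripts were lower and 1 was higher while the median was 0.04. This is 30.8% called, against 13.4% of all tested transcripts. Over all alternative analyses 2 to 12 aromatic transcripts were called lower. The lower calls held 2 DAHP synthases, at the entry to the shikimate pathway, GRMZM2G454719 (-1.49) and GRMZM2G365160 (-1.25), and enzymes of the tryptophan branch such as the tryptophan synthase GRMZM2G085381 (-3.51) beside the anthranilate synthase given above. For the DAHP synthases the low P response was 2.05 and 1.90. Ketol-acid reductoisomerase GRMZM2G161868, of branched-chain synthesis, had 0.52, 0.59, 0.52 and 0.37 in low N, 0.60, 0.44, 0.81 and 0.53 in control N, 2.45, 2.63, 2.47 and 2.49 in low P, and 0.38, 0.63, 0.70 and 0.22 in control P. Low P alone was apart from the other 12 arrays (-2.12 ± 0.17, adjusted p = 5.9e-07).

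Ribosomal proteins showed a small difference spread over many members. Of 204 transcripts 178 had a positive difference, with a median of 0.51, a median low N response of 0.26 and a median low P response of -0.25. Only 12 passed both limits (5.88%), 11 higher and 1 lower, and 47 passed the adjusted p alone. The leading one was a protein of the L18ae family, GRMZM2G100349 (1.67 ± 0.40, adjusted p = 0.0071), and the single lower one was of the L34e family, GRMZM2G452671 (-1.17 ± 0.16, adjusted p = 0.00014). GRMZM2G100349 was not called with the slide as a random block, with all 24 arrays in the fit or in the test against a 1.5-fold difference, nor was GRMZM2G452671 with scaling on spike-in probes, after normexp correction or with the low N arrays of the shared slide alone. The median stayed positive in every alternative analysis, at 0.19 to 0.66, and was lowest with the low N arrays of the shared slide alone. Its number of higher calls was 34 with scaling on the median, 2 with the slide as a random block, 27 without control N replicate 3, 24 without control N replicate 4, 7 without control N replicate 1 and 6 without control N replicate 2.

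Proteases were called in both directions. Among serine proteases 11 of 62 were lower and 2 higher in the low N response (21%), and 8 of these 11 were serine carboxypeptidases, which trim peptides from their C-terminal end. A serine carboxypeptidase was also among the higher calls, GRMZM2G035517 (2.41). Cysteine proteases and their inhibitors had 5 lower and 3 higher calls among 29 (27.6%), with 13.4% called over all tested transcripts. The study's list of aspartyl proteases had 6 lower and 3 higher among 42 (21.4%). Of the higher calls in that list, GRMZM2G081626 and GRMZM2G093032 are described as asparaginyl peptidases, and GRMZM2G335978 as an aspartyl protease. The asparaginyl peptidase GRMZM2G093032, of the vacuolar processing type, was the leading higher one of its list. It had 6.25, 6.31, 5.27 and 5.74 in low N, 5.91, 6.18, 5.29 and 5.35 in control N, 3.16, 3.23, 3.06 and 3.22 in low P, and 5.66, 5.20, 5.13 and 6.11 in control P, a difference of 2.57 ± 0.38 (SE, adjusted p = 0.0002) through low P. Among 27 autophagy transcripts (median 0.34) none was called in limma. Of these, 7 passed the adjusted p alone and 10 had an unadjusted p under 0.05. None of 5 senescence markers was called, while 1 passed the adjusted p alone (also 1 under an unadjusted p of 0.05). The stay-green homologue GRMZM2G091837, which acts in chlorophyll breakdown, was higher by 1.08 ± 0.36 (adjusted p = 0.0398) and kept its call in 13 of 36 alternative analyses.

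Responses that were called under both stresses in the same direction were found for 515 transcripts, 298 higher and 217 lower. Of these, 58 were called for the difference and 457 were not. In 96 of the 457 the 95% interval of the difference lay within a factor of 2 in either direction, as it did for 14151 (47.7%) of all tested transcripts. A PEBP-family transcript, GRMZM2G179264, related to the flowering regulator FT, had -5.36, -5.48, -4.26 and -3.26 in low N, -0.46, -0.88, 0.86 and 0.02 in control N, -2.82, -4.81, -2.81 and -4.13 in low P, and 0.72, 0.74, 1.04 and -0.12 in control P. It was 22.2-fold lower in low N and 18.9-fold lower in low P, and the interval of the difference was wide, from -1.89 to 1.42. For 9-cis-epoxycarotenoid dioxygenase GRMZM2G407181, a key enzyme of abscisic acid synthesis, the responses of -2.42 and -2.16 differed by -0.26, with an interval of -0.88 to 0.36 that excludes a factor of 2. Its signals were 1.0, 1.26, 1.14 and 1.46 in low N, 4.02, 3.82, 3.13 and 3.56 in control N, 1.11, 0.87, 1.55 and 1.18 in low P, and 2.92, 3.26, 3.66 and 3.50 in control P.

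On the side of increases, the chitinase GRMZM2G062974 had -1.12, -1.80, -2.09 and -2.04 in low N, -3.53, -3.93, -4.15 and -3.45 in control N, -2.03, -1.19, -1.01 and -1.43 in low P, and -3.86, -3.74, -3.46 and -3.71 in control P. Both stressed groups were above both control groups, and the difference of -0.28 had an interval of -1.02 to 0.46. Ranked by the smaller response among described transcripts not called for the difference, the lipid-transfer-type inhibitor GRMZM2G046750 had the largest shared increase. Its responses were 3.52 in low N and 2.57 in low P. The difference of 0.95 (interval 0.24 to 1.67, adjusted p = 0.0499) was just under the limit of size.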

How the data were processed

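The deposited files hold the scanner's spot intensity of each one-colour array (Agilent Feature Extraction 11.7.1, per the labels), which the authors extracted with background subtraction within the array. A series table holds the authors' log2 values of the same arrays, scaled to the 75th percentile and centred on the median of each probe, and was used as an alternative. Here log2 intensity minus the 75th percentile of its array was fitted with limma 3.58.1 in R 4.3.3 over the 16 arrays, with the 4 groups as coefficients, and p-values were adjusted over all 29642 tested probes. Of these, 24362 were well above background on all 16 arrays, and the number of arrays limits the precision. The same replicate numbers occur in all groups. Arrays with the same number deviated together in the low N experiment (r = 0.19 to 0.39 by the numbers in the labels, with -0.42 to 0.37 between different numbers, where 1 and 2 and also 3 and 4 went together) and not in the low P experiment (r = -0.15 to 0.03), so that a replicate block was fitted as an alternative.

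The rule for naming transcripts chose 146, of which the text gives those its results turn on. They are, in each direction, the 10 largest called differences among described loci above background on all arrays, all members of the N and Pi lists, the called extremes of other lists, the extremes of each class of responses, and the largest responses shared by both stresses. Where a locus has several probes, the probe given is not always that with the largest difference. GRMZM2G059151, GRMZM2G124593, GRMZM2G176307, GRMZM2G139300, GRMZM2G454719, GRMZM2G365160 and GRMZM2G085381 fall outside this rule and were chosen after their values were seen. The members and lists were chosen with earlier results of these data known, and most descriptions come from tables of transcripts that the study had called on these samples. On simulated data with known differences, 35 of 50 transcripts that differed by 1.5 on the log2 scale were called, 47 of 50 that differed by 3, and 6 of 29442 that did not differ. The simulated arrays varied independently, with the same SD in both experiments and no slides. These counts therefore give no error rate for the calls on the real arrays. Alternatives covered scaling, background, filter, limits, slide, block and left-out arrays, 36 in all. The 8 arrays of the low temperature experiment were used only in 1 alternative. Promoter sequences were not analysed here.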

Additional observations from a re-analysis of the deposited data

Results flagged for a closer look

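The low N and low P responses differed for 3981 transcripts by the test of the difference itself, as given above.

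Among the transcripts named above, 14 of 316 groups of 4 arrays held an array that lay far from the other 3, measured as its gap to the nearest array over the range of the group. About 1 group in 20 is marked by chance. In control N, replicate 4 was high for the PHF-like GRMZM2G158489 (gap 0.915 of the range, 1.25 against 0.59 on the nearest array) and the acid phosphatase GRMZM2G134054 (0.852), replicate 3 was high for allantoinase GRMZM2G173413 (0.882), and replicate 2 was high for asparaginase GRMZM2G082032 (0.839). The sucrose phosphate synthase GRMZM2G013166 was low on replicate 3 of both low N (0.837) and control N (0.838), so that these arrays lay apart in the same direction. In low N, replicate 4 was low for the serine O-acetyltransferase GRMZM2G013430 (0.85).

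In low P, replicate 3 was high for the SPX-MFS transcript GRMZM2G086430 (0.83) and the acid phosphatase GRMZM2G062201 (0.926), and low for the ribosomal protein GRMZM2G452671 (0.844). In control P, replicate 2 was high for the PHT1;4-like GRMZM2G326707 (0.894) and the acid phosphatase GRMZM2G434170 (0.851), replicate 3 was low for the SPX3-like GRMZM2G370780 (0.88), and replicate 4 was low for the SPX-MFS transcript GRMZM2G166976 (0.921, with 0.35 against 1.41 on the nearest array).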

How the results depend on the processing

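The rule for naming transcripts chose 146, not all of which are given above. Of the 94 of them called for the difference, 62 kept their call in all 36 alternatives and none changed its direction. The slide as a random block ended most calls (25 of 94), followed by scaling on spike-in probes and the test against a 1.5-fold difference (18 each). Of the 52 without a call, 12 gained one in some alternative. The cause of these shifts was not tested.

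Scaling on spike-in probes gave 2204 calls (680 higher, 1524 lower), with 206 opposite responses, 1566 shared ones and 120 between the controls, and moved the median response of all transcripts to 0.53 in low N and 0.52 in low P. Scaling on the median gave 1926 higher calls and a median difference of 0.138, and quantile normalization a median of 0.112. Normexp correction gave 2235 calls (777 higher, 1458 lower), 186 opposite, 212 shared and 130 between the controls, with a median of 0.139. Without a background filter the median was -0.189. Restriction to probes above background on all 16 arrays, which tests fewer probes, gave 212 opposite and 334 shared responses. The adjusted p alone gave 7408 calls (3351 higher), 1196 opposite, 1976 shared and 1390 between the controls. The test against a 1.5-fold difference gave 1836 calls (425 higher, 1411 lower), 115 opposite, 101 shared and 16 between the controls. The slide as a random block gave 1483 calls (367 higher, 1116 lower), 93 opposite, 105 shared and 1 between the controls. With the low N arrays of the shared slide alone, 1408 were called between the controls, but control N is then 1 array, assumed to vary like the other groups, and with all 24 arrays in the fit 220.

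Leaving out single arrays gave 3443 to 4151 calls. Leaving out a replicate number from all groups gave 2975, 2970, 4064 and 3358 calls for numbers 1 to 4. Calls between the controls ran from 49 to 428 and were lowest without replicates 1 (79) or 2 (49) of both groups or without control P replicate 1 (204) or 2 (214). With the replicate block in both experiments 4158 transcripts were called (1296 higher, 2862 lower), of which 3793 were among the 3981, and with it in the low N experiment alone, 4445. Signal over background limits 1019 of the 3981 called transcripts, which were not well above it on every array.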
